A study of Chlamydomonas reinhardtii with 8 samples.

Results

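The 130 transcript models described here gave a much weaker Cy5 than Cy3 signal on 1 array, the second array of a dye test, and a mean ratio within 2-fold of 1 on 4 arrays of a sulfur starvation experiment. They were chosen by these values from 14557 models of *Chlamydomonas reinhardtii*, a single-celled green alga. A model was taken when its probes 1 and 2 both had a log2 ratio of Cy5 over Cy3 of -2.5 or lower on that array, with Cy3 well above background, and when the mean log2 ratio of both probes over 4 of the replication arrays lay between -1 and 1. The rule asked for no signal level on those 4 arrays. On them 105 of the 130 models had both probes well above background in either channel on 3 or more arrays. Of the others, 7 had 1 such probe and 18 had none. In these 18, each probe was well above background in neither channel on at least 2 of the 4 arrays. A ratio there sets background against background. Some of these probes were well above it on replication arrays 3 and 4. Probe 1 of model 189791 was so in both channels, with log2 ratios of 1.88 and 1.35. Models named in advance by the rule, 6 in number, were set aside, which removed 1 model that otherwise qualified. On the second dye-test array 178 models (1.25% of the 14187 with Cy3 well above background for both probes) reached the threshold whatever their replication means. In 131 of them both replication means lay within the limits, in 16 both lay below -1, in 11 both lay above 1, and 20 were mixed. At 2.5 or higher, with the other conditions alike but no model set aside, 103 models were found. The condition on Cy3 falls there on the weaker channel and in the 130 models on the stronger, so the counts are not like for like.

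For the dye test, RNA of strain cc125, a wild type, was put on 2 arrays. The sample labels give 24 h for both channels, and the study describes the RNA in Cy5 and Cy3 as identical and taken from sulfur-starved cells. For the replication experiment, RNA of strain cc3491, also a wild type, was put on 6 arrays, with sulfur-starved cells in Cy5 and the same strain at T0 (0 h) in Cy3. Cells were grown in TAP medium, with sulfur or without it. The titles of the 6 replication arrays give 24 h, whereas their characteristics give 24, 48, 72, 96, 24 and 48 h for arrays 1 to 6. Of these, 3 are biological and 3 technical replicates in the study's account, and the labels do not say which.

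On a 2-colour array the RNA of both channels competes for the same probe, and the ratio of the intensities gives their relative amounts. A negative log2 ratio here stands for a weaker Cy5 than Cy3 signal, with each unit a factor of 2. Each model was represented by 3 probes of the design. Whether the label of the second dye-test array is right is uncertain, and the channels are named by their dye only. In log2 intensity over 16200 probes, its Cy5 channel correlated with the channels of the first dye-test array at Pearson's r of 0.818 and 0.823, and its Cy3 channel at 0.927 and 0.930. Between Cy5 and Cy3 r was 0.891 on the second array and 0.995 on the first. With the cc3491 channels of arrays 3 to 6, r was 0.797 to 0.808 for Cy5 and 0.777 to 0.803 for Cy3 of the second array. These are correlations across probes of single arrays, the probes share each hybridisation, and they are given without a test. The genotype or treatment of either channel was not tested.

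Photosystems and electron transport were the largest named group, with 9 models. In photosynthetic electron transport, photosystem II and photosystem I are linked by the cytochrome b6f complex, and the ferredoxin-NADP reductase passes the electrons on to NADP. The light-harvesting proteins LHCA serve photosystem I and the LHCB proteins photosystem II. Gene names were at hand for few models. Of the 130 models, 52 appear in the study's tables of starvation-responsive genes and 37 of them carry a name or description there, so the named models are not a neutral sample. An older locus name in the RefSeq annotation was found for 106 models, but this annotation gives them no gene symbols, and its assembly is not that of the array design, so no positions are printed.

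By their own measure the 130 models had a median log2 ratio of -3.11 on the second dye-test array, as the mean of probes 1 and 2. The values ranged from -5.10 to -2.56, with quartiles of -3.82 and -2.83. On the first dye-test array the median of the same models was -0.13 and the range -1.41 to 0.81, over the 127 models with an unmarked spot. On array 3 of the replication experiment it was 0.04, on array 4 -0.0014, on array 5 -0.04 and on array 6 -0.05. Over the mean of these 4 arrays the 105 models with both probes measured had a median of -0.04, and all 130 a median of 0.0020. Over all models the medians were 0.07 on the second dye-test array and -0.00062 on the first. Every one of the 130 models lay lower on the second dye-test array than on arrays 3 to 6, and each of the 127 lay lower than on the first. The distance to the lowest of these others was 1.63 to 4.91, with a median of 2.81. The rule fixes most of this gap, apart from the part against the first dye-test array, and no test was made.

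**Figure D1:**
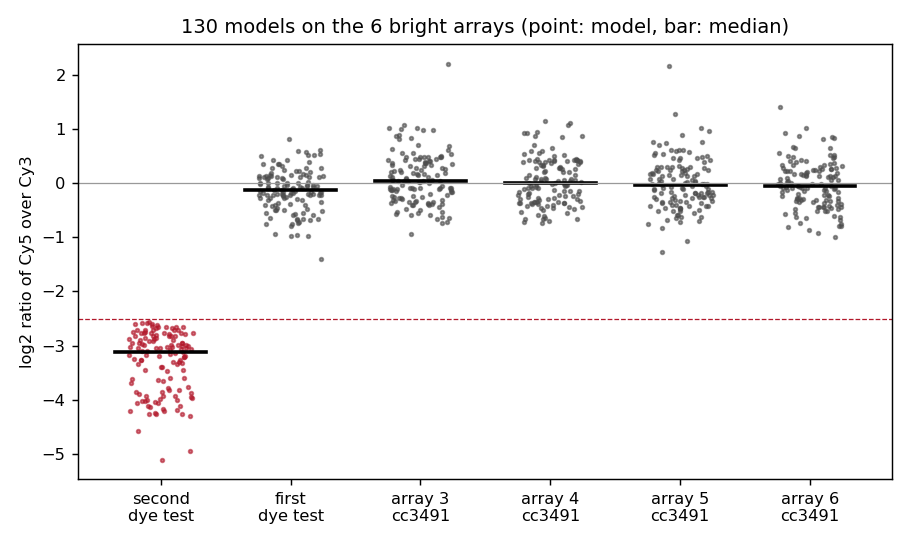
Log2 ratio of Cy5 over Cy3 of the 130 models (mean of probes 1 and 2) on both dye-test arrays and on cc3491 arrays 3 to 6. Points are models, bars are medians, and the dashed line is the threshold of -2.5. The medians are -3.11 on the second dye-test array, -0.13 on the first and -0.05 to 0.04 on the cc3491 arrays.

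Probes 1 and 2 gave close values on the second dye-test array. In 104 of the 130 models they lay within 0.5 of each other, and in 9 they differed by more than 1. The SD between both probes of a model was 0.34. Nearest to the threshold inside it were models 190511 (-2.51 for the higher probe), 205849 (-2.51) and 112251 (-2.51), and nearest outside it models 132210 (-2.499), 186304 (-2.48) and 192813 (-2.44). Between -2.6 and -2.5 lay the higher probe of 20 models, and between -2.5 and -2.4 that of 11 further models that met the other conditions.

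The weak Cy5 signal was still measurable. In 128 of the 130 models both probes were well above background in Cy5 on the second dye-test array. The exceptions were model 168461 with probe 2 and model 194998 with both probes. In the other direction, Cy3 was saturated for 32 of the 260 probes, in 22 models, and Cy5 for none. Over all probes of this array 1.80% were saturated in 1 or both channels. For such a probe the true ratio can only be lower than the value given. Without the 22 models the median was -3.04.

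On the dye-test arrays and arrays 3 to 6 the same probes ranked high in every channel except Cy5 of the second dye-test array. Within that channel their median intensity percentile among all probes was 74.5, against 92.1 in Cy3 of the same array. The rule asked for Cy5 far below Cy3 on this array, so this contrast follows from the choice of the models. The percentiles were 92.6 in Cy5 and 92.5 in Cy3 of the first dye-test array. In the cc3491 arrays 3 to 6 they were 90.3 to 90.9 in Cy5 and 91.0 to 91.1 in Cy3. The percentile compares the same 260 probes between channels and does not compare transcripts, because the brightness of a spot also depends on its probe.

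**Figure D2:**
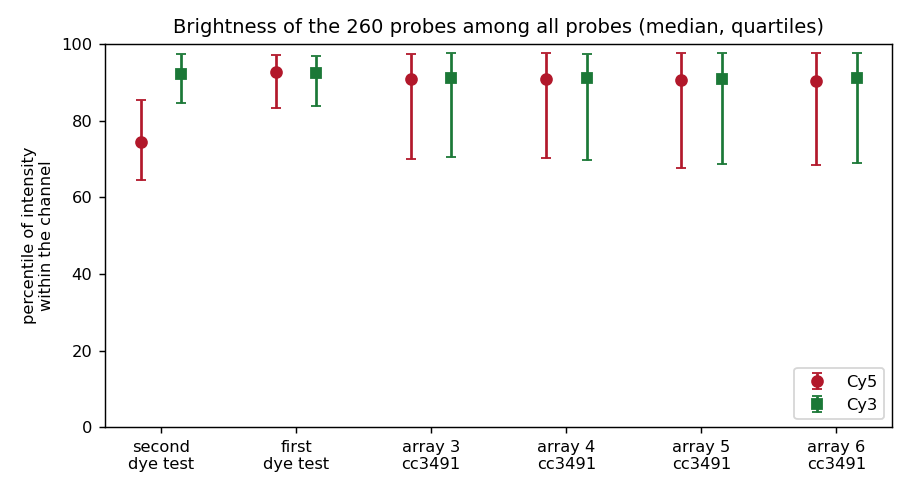
Percentile of the 260 probes (probes 1 and 2 of 130 models) among all probes of each channel. Symbols are medians and lines span the quartiles. Cy5 of the second dye-test array stands at 74.5, and the other 11 channels lie between 90.3 and 92.6. The rule chose these probes for a Cy5 far below Cy3 on the second dye-test array.

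Brightness limited the first dye-test array. On it 33 of the 260 probes were saturated in Cy5, of which 22 were saturated in Cy3 too. Over all probes 1.54% were saturated in 1 or both channels. The 23 models with a saturated spot had a median log2 ratio of -0.66 there, and the 104 models without one a median of -0.06. A ratio between 2 saturated channels is set by their ceilings, and no value of the first array is given below for single genes with a saturated spot. In 40 models a spot was marked as uneven or as an outlier on the first array, and these spots were left out. On the second array no spot of probes 1 and 2 was marked.

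Photosystem I was represented by 3 of its subunits. Model 144056 had the lowest mean of the 130 as read, without a saturated spot, and is listed as PSAK, a small membrane subunit of photosystem I, a name that another model also bears in the tables. Its 3 probes had 1796, 4617 and 3135 units in Cy5 of the second dye-test array, against 71819, 136199 and 96874 units in Cy3. The log2 ratios were -5.32, -4.88 and -4.95, and all 3 probes lay far below 0. The mean of probes 1 and 2 was 0.36 on the first dye-test array, and on arrays 3 to 6 it was 0.05, 0.04, -0.19 and -0.02. The replication arrays scattered around 0 with a mean of -0.03 ± 0.11 (SD, n = 4).

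PSAH encodes subunit H of photosystem I. On the second dye-test array its probes gave log2 ratios of -4.44, -3.60 and -4.56, with Cy3 saturated for all 3. For probe 1 the intensities were 12100 units in Cy5 and 263194 units in Cy3, a Cy5 signal at least as far below Cy3 as the ratio says. PSAH on arrays 3 to 6 had 0.61, 0.55, 0.42 and 0.47, a mean of 0.52 ± 0.09 (SD, n = 4). All 4 cc3491 values were thus above 0 and within the limits of the rule. PSAL, subunit XI of the same photosystem, had -3.69, -2.84 and -3.82 on the second dye-test array and -0.06 on the first. Its cc3491 values were 0.32, 0.41, -0.02 and 0.27. PSAH, PSAL, PETO and FNR1 were named after their values were seen.

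The antenna was represented by 3 proteins of photosystem I and 1 of photosystem II. LHCA7 had log2 ratios of -4.85, -3.62 and -3.05 on the second dye-test array, with Cy3 saturated for probes 1 and 2. Another model also bears the name LHCA7 in the study's tables. A model that the tables name LHCA5 in places and LHCA6 in others had -4.80, -3.73 and -3.60, and -0.20 on the first dye-test array. LHCA8 had -4.04, -2.65 and -4.61, and 0.10 on the first array. All 3 probes of these models lay below -2.5. LHCB4, a minor antenna protein of photosystem II, had -4.21 and -4.19 for probes 1 and 2, but -1.13 for probe 3. Probe 3 had 232 units in Cy5 and 508 units in Cy3, and was well above background in Cy3.

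On cc3491 arrays 3 to 6 the antenna models were above 0 in the mean. The study reports the LHCA models and PSAH as lowered under sulfur starvation, in averages over its time points. The source of this difference was not tested. LHCA7 had 0.28, 0.19, 0.88 and 1.01 on arrays 3 to 6, the LHCA5 or LHCA6 model had 0.19, 0.28, 0.39 and 0.43, and LHCA8 had 0.29, 0.28, 0.14 and 0.22. LHCB4 had -0.13, -0.35, 0.59 and 0.52. LHCA7 and LHCB4 thus read lower on arrays 3 and 4 than on arrays 5 and 6, without overlap. Both of their probes, and both of the LHCA5 or LHCA6 model, were saturated in Cy5 on arrays 3 and 4 only, where the ratios are limited by the ceiling. The same holds for probe 1 of PSAH, FNR1 and GAP3. Cy3 was saturated for probe 1 of LHCB4 on arrays 4 to 6 and for its probe 2 on array 5. It was also saturated for probe 1 of FNR1 on arrays 4 and 5. Values of LHCB4 and FNR1 on those arrays are thus limited by a ceiling in Cy3 as well.

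PETO and FNR1 belong to the steps between the photosystems and after photosystem I. PETO, a subunit of the cytochrome b6f complex, had -4.26, -3.79 and -3.87 on the second dye-test array, against 0.03 on the first, where probe 1 was marked. For its probe 2 the intensities were 717 units in Cy5 and 9931 units in Cy3 on the second array, and 5145 units in Cy5 and 5053 units in Cy3 on the first. FNR1, the ferredoxin-NADP reductase, had -3.23, -3.98 and -2.79 on the second array, with Cy3 saturated for probes 1 and 3. PETO on arrays 3 to 6 had -0.11, -0.10, -0.22 and -0.22. FNR1 had -0.66, -0.67, -0.84 and -0.79, the lowest mean of the 130 models on these arrays (-0.74 ± 0.09, SD, n = 4).

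As a list, photosystems and electron transport had 29 models in the tables, of which 9 were among the 130. These are PSAK, PSAH, PSAL, PETO, FNR1 and the 4 antenna models, which the word photosystem in their description places there as well. The 29 models had a median of -2.96 on the second dye-test array, 20 of them at -1 or lower and 2 at 1 or higher. Light harvesting had 18 models, a median of -1.75, and 4 of the 130, with 13 models at -1 or lower and 3 at 1 or higher. Beside this, the 1191 models in the tables had a median of 0.24 and included 52 of the 130, which is 4.37% of the 1191. All 14557 models had a median of 0.07, and the 130 are 0.893% of them. The photosystem list on the first dye-test array had a median of -0.04 and light harvesting a median of 0.09. The lists and the 130 models were chosen with these values known, and the shares are a description.

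The Calvin cycle enzyme GAP3, glyceraldehyde-3-phosphate dehydrogenase, had log2 ratios of -4.53, -5.35 and -2.498 on the second dye-test array. Probe 2 had 4711 units in Cy5 and 192161 units in Cy3, and probe 1 was saturated in Cy3. Probes 1 and 2 of GAP3 were marked on the first array, where probe 3 had -0.19. Its values on arrays 3 to 6 were -0.30, -0.34, -0.23 and -0.42, all below 0. The Calvin cycle list held 3 models, all at -1 or lower on the second dye-test array, of which GAP3 alone was among the 130.

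Genes of CO2 uptake, which help the cell to concentrate inorganic carbon, formed the next group, with 3 of 16 listed models and a list median of -1.30. In that list 10 models lay at -1 or lower and 3 at 1 or higher. HLA3, an ABC transporter, had -3.68, -3.85 and -0.73 on the second dye-test array and -0.12 on the first. Its probe 2 did not pass the filter on background on arrays 3 to 6. Probe 1 had 0.20, 0.31, 0.28 and 0.28 there, all above 0. A model named CCP1 or CCP2 in the tables, described as a chloroplast envelope protein induced at low CO2, had -3.81, -2.56 and -2.90, and -0.20 on the first array. LCI15, named only in the sulfur table, had -3.16, -3.005 and -1.74, and -0.20 on the first array. There, 79 of 263 numeric names differ from the identifier listed beside them, so names found only there, which include PSAK, HON1, FAP170 and LCI15, are less certain.

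Among the phosphate genes, 2 of 11 listed models belonged to the 130, and the list median was -0.34. Of the 11, 5 lay at -1 or lower and 2 at 1 or higher. PTB5, a sodium/phosphate symporter whose name another model also bears in the tables, had -4.20, -4.96 and 0.07 on the second dye-test array. Probe 1 had 6209 units in Cy5 and 114311 units in Cy3 there, against 62025 units in Cy5 and 51814 units in Cy3 on the first array. Probe 3 had 844 units in Cy5 and 806 units in Cy3 on the second array, against 472 units in Cy5 and 499 units in Cy3 on the first. Probe 3 of PTB5 thus stood apart from probes 1 and 2, and it was close to 0 on both dye-test arrays. PHO1, an alkaline phosphatase, had -4.47, -3.24 and -3.26. Its probe 2 did not pass the filter on background on arrays 3 to 6, where probe 1 had 0.11, 0.25, -0.06 and 0.15.

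The other listed models stood alone in their lists. HON1, a histone H1, had -3.66 and -4.86 for probes 1 and 2. Its probe 2 was not well above background in Cy5, and its Cy5 signal was at least 11.5-fold lower than Cy3, taking the lowest Cy5 signal of any probe well above background on the array. Only probe 1 passed the filter on background on arrays 3 to 6, with 1.00, 0.67, 0.50 and 1.17. Its Cy5 was not well above background on array 5, and on array 6 neither channel was. The list of histones and DNA replication ran the other way, with a median of 1.00 over 74 models and 37 of them at 1 or higher. PHC13, a pherophorin of the cell wall, had -4.39, -3.26 and -0.30, and FAP170, a flagellar associated protein, had -3.28, -3.31 and 0.64. Their lists held 13 models with a median of -0.83 and 40 models with a median of -0.84. A model described as a helicase, 127992, was the only one of 5 transcription models among the 130, with -3.09, -3.12 and -2.99.

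Of the remaining lists, pigment synthesis (4 models), plastid ribosome (3), cell cycle (6), sulfur (15), nitrogen (12), signalling (23), stress and proteolysis (34) and scavenger receptor or lectin domains (1) had no model among the 130. The 15 sulfur models had a median of 3.39 on the second dye-test array, 13 of them at 1 or higher, and of -0.05 on the first. Transport had 27 models, of which HLA3 was the only one among the 130. No model was found for the cytosolic ribosome. The 4 pigment models ran the other way, with a median of 1.56 on the second dye-test array, 3 of them at 1 or higher and 0 at -1 or lower. The words of the pigment list do not cover all enzymes of that pathway. PBGD1, porphobilinogen deaminase of tetrapyrrole synthesis, had -3.20, -2.79 and -0.56 on the second dye-test array and -0.18 on the first. A geranylgeranyl reductase had -4.11, -3.83 and -0.85 there and -0.09 on the first array. Both were named after their values were seen.

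Further described models fall in no list and were also named after their values were seen. CSP41a and CSP41b are chloroplast stem-loop-binding proteins, a kind of RNA-binding protein. CSP41a had -3.15, -3.12 and -1.94 and CSP41b had -2.57, -2.67 and -1.87 on the second dye-test array, with -0.12 and -0.25 on the first. RSZ22, an SR protein of the kind that acts in splicing, had -2.89 in probes 1 and 2 and -1.05 in probe 3. PUF4, of the Puf family of RNA-binding proteins, had -3.28, -3.20 and -3.40, and 0.13 on the first array. RBD2, a rubredoxin, had -3.31, -2.52 and -3.85. Unnamed among the 10 lowest models were 33956, 155150 and 76146. Model 33956 had -4.19, -4.40 and 0.10, and in the other pair Cy3 was saturated for probes 1 and 2. Model 155150 had -4.33, -4.19 and -3.83 and model 76146 had -4.01, -4.39 and -4.31.

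**Figure D3:**
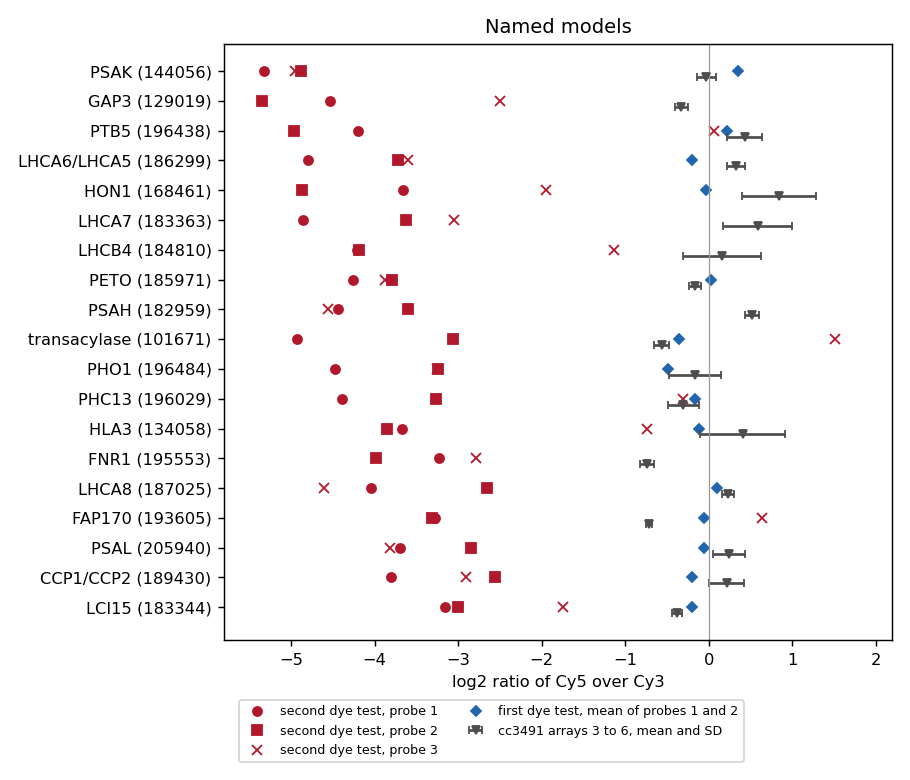
Log2 ratio of Cy5 over Cy3 of named models. Red symbols are probes 1, 2 and 3 on the second dye-test array, blue diamonds the mean of probes 1 and 2 on the first dye-test array where no spot was saturated, and grey triangles the mean of probes 1 and 2 with SD over cc3491 arrays 3 to 6, which for HLA3, PHO1, HON1 and PHC13 includes a probe that did not pass the filter on background. Probe 3 of PTB5 (0.07), FAP170 (0.64) and the transacylase model 101671 (1.51) lies above 0, apart from their probes 1 and 2.

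Probe 3 was not used by the rule but belongs to the same array, and its values are a description. It was well above background in Cy3 for all 130 models. Its median was -2.31, with a range of -4.95 to 1.51. At -2.5 or lower lay 62 of the 130 models, beside 1.21% of all 14332 models with such a probe 3. A further 30 lay above -2.5 and at -1 or lower, 28 above -1 and below 0, and 10 at 0 or above. Probe 1 was lower than probe 3 in 98 models and probe 2 in 92 models. For 68 of the 130 models the threshold thus held in probes 1 and 2 but not in probe 3.

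**Figure D4:**
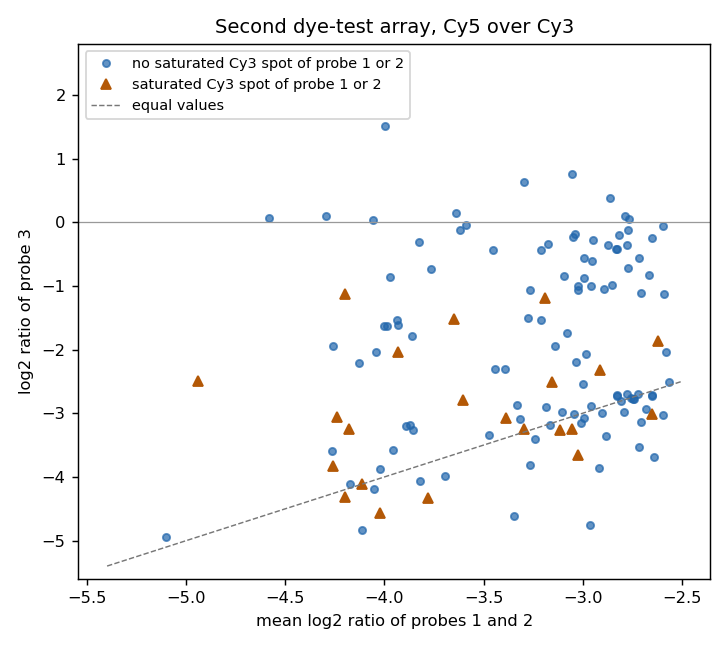
Log2 ratio of probe 3 against the mean of probes 1 and 2 on the second dye-test array, each point a model. Triangles mark the 22 models with a saturated Cy3 spot of probe 1 or 2. In 62 models probe 3 lies at -2.5 or lower, and in 10 it lies at 0 or above.

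The probe 3 farthest from its companions belonged to model 101671, described as malonyl-CoA:acyl-carrier-protein transacylase, an enzyme of fatty acid synthesis. Probe 1 had 4761 units in Cy5 and 145352 units in Cy3 and probe 2 had 11303 units in Cy5 and 94297 units in Cy3. Probe 3 had 13879 units in Cy5 and 4864 units in Cy3. The log2 ratios were -4.93, -3.06 and 1.51, so that 1 model gave both directions on 1 array. The mean of probes 1 and 2 was -0.36 on the first dye-test array, and on arrays 3 to 6 it was -0.58, -0.61, -0.43 and -0.63.

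Features of the probes were read from the part of the study's probe list at hand, which holds all 3 probes of 1503 models and of 19 of the 130. In 9 of the 19, probes 1 and 2 shared a run of 20 bases or more, beside 677 of the 1503 models. In such models both probes read overlapping stretches, and their agreement is not that of separate measurements. Their log2 ratios differed by 0.10 in the median and at most by 1.23, in LHCA7 with a shared run of 35 bases. In the other 10 models they differed by 0.27 in the median and at most by 1.87, in model 101671, whose probes 1 and 2 share no run over 6 bases. In 8 of the 19, probe 2 came from the first-generation array, beside 30.5% of the 1503 models. Probe 2 was closer to 0 than probe 1 in 5 of these 8 and in 6 of the 11 others.

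In 2 of the 19 models, 152423 and 195318, probe 3 is of a kind that the list marks as anti, beside 9.51% of the 1503 models. In model 152423 probe 3 is the reverse complement of probe 1 over all 60 bases and thus reads the opposite strand. Its log2 ratio on the second dye-test array was -0.83, against -2.57 for probe 1 and -2.76 for probe 2. In model 195318 the complement of probe 3 shares 31 bases with probe 2, and the values were -0.42 for probe 3, -2.69 for probe 1 and -2.96 for probe 2. In 3 models probe 3 overlaps another probe on the same strand. Probe 3 of FNR1 shares 44 bases with probe 1, and they had -2.79 and -3.23. Probe 3 of model 183558 shares 26 bases with probe 2, and they had -4.06 and -3.75. In model 182955 all 3 probes overlap, with values between -3.07 and -2.99. These models were picked after their values were seen.

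Some models lay next to each other in identifier and gave almost equal values. Of the 130, 23 had another of them within 5 identifiers. The largest run comprised 11 models between 205836 and 205849, none of them named. Their probe 1 lay between -3.07 and -2.75 and their probe 2 between -3.11 and -2.51 on the second dye-test array. Probe 3 ran from -2.98 to -0.12. The 11 models were above 0 on the first dye-test array in both probes, where unmarked, at 0.15 to 0.83 for probe 1 and 0.19 to 0.70 for probe 2. Model 205837, model 205845 and model 205823 had the highest means of the 130 on the first array (0.59, 0.62 and 0.81). Model 205823 is described as CCB4, a protein required for assembly of cytochrome b6, and had -3.11, -3.004 and 0.76 on the second array. Its value on the first array rests on probe 1 alone.

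U2 snRNA, a part of the spliceosome that recognises the branch site of introns, formed a second group of like values. Named as U2 were models 205792, 205806 and 205812, of which the last pair lie in a run of 4 models and 205792 outside it. Their probe 1 lay between -3.90 and -3.25 and their probe 2 between -3.98 and -3.28 on the second dye-test array, whereas probe 3 lay between -1.61 and -1.07. The unnamed models 205808 and 205809 gave -4.00, -4.01 and -1.63 and -3.96, -4.01 and -1.64. The mean over arrays 3 to 6 of the named models lay between -0.54 and -0.34. Other snRNA models did not reach the threshold. Among them were further models named as U2. For probes 1 and 2, U2e (205803) had -1.83 and -1.53, and U2d pseudo (205801) had -1.61 and -0.24. U3 (205826) had -2.12 and -2.28, and U5f (205817) had -2.35 and -2.399, while U1a (205794) had 1.03 and 1.09 for these probes. Where such models are near-identical copies, their probes can bind each other's RNA, and they may not count as separate genes. Their likeness in sequence was not tested. Both groups were picked after their values were seen. Without the 23 neighbouring models the median of the others was -3.16.

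In the annotation 2 pairs of loci of the 130 models lay directly next to each other. One was PTB5 with the unnamed model 174005, at -4.58 and -4.04 on the second dye-test array, and the other the unnamed models 165416 and 37663, at -3.38 and -3.17. Over the area of the array the probes were spread. Its upper left, upper right, lower left and lower right parts held 20.8%, 26.2%, 27.7% and 25.4% of the 260 probes, beside 24.7%, 25.3%, 24.7% and 25.3% of all probes.

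On the first dye-test array, 1 of the 127 models with a value lay beyond a 2-fold difference, beside 0.0954% in either direction of the 12580 models with Cy3 well above background for both probes. This was the unnamed model 33956, with -1.41, which rests on probe 2 alone because probe 1 was marked. Probe 2 had 655 units in Cy5 and 13814 units in Cy3 on the second array, and 2674 units in Cy5 and 7108 units in Cy3 on the first. It was also low on arrays 3 to 6, with -0.55, -0.70, -0.59 and -0.75. The next lowest, models 165416 and 182692, rest on 1 spot each that was saturated in both channels. Of the 127 models 82 lay below 0 and 45 above it. With 1 array of this kind no test could be made.

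The comparison of sulfur-starved with T0 cells was used by the rule, and its calls are given without a reading. In limma a probe was tested when 3 or more of these 4 arrays showed it well above background in either channel, and 217 of the 260 probes passed this filter. With Holm adjustment at 0.05 and a 2-fold change, 0 of the 217 were called, beside 212 of 18240 probes (1.16%). With Benjamini-Hochberg adjustment and no minimum change 92 of the 217 passed, beside 45.7% of all probes tested, and at an unadjusted p under 0.05 there were 110, beside 54.2%. Of the 130 models 65 lay below 0 and 65 above it in their mean, 46 were below 0 on all 4 arrays and 39 above 0 on all 4. The 18 models without a probe that passed the filter are included. The SD over the 4 arrays was 0.16 in the median. The highest mean was that of the unnamed model 159875, with 1.07, 1.11, 0.96 and 0.87 on arrays 3 to 6.

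Arrays 3 and 4 were compared with arrays 5 and 6 as the only contrast that the rule did not use. Both pairs lie on slides of their own and are labelled with later (72 and 96 h) and earlier (24 and 48 h) times, so slide and time cannot be told apart. With Holm adjustment in limma, 0 of the 217 probes were called, beside 0% of 18240, and the same held with Benjamini-Hochberg adjustment and no minimum change, at 0 of 217 beside 0%. With 2 arrays against 2, these counts do not show that the arrays are alike. At an unadjusted p under 0.05 there were 61 of the 217 (28.1%), 44 higher and 17 lower on arrays 3 and 4, beside 23.1% of all probes, of which 2382 were higher and 1837 lower. Of the 44, 18 are probes of the single run 205836 to 205849, and among the 195 probes outside it there were 26 higher and 17 lower (22.1%). The lowest Benjamini-Hochberg adjusted p among the 217 was 0.085, which is also the lowest of all. The difference had a median of 0.10 over the 217 probes and of 0.07 over all.

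Saturation moved with this contrast. On arrays 3 and 4, 28 and 29 of the 260 probes were saturated in Cy5 and 7 on each in Cy3, whereas on arrays 5 and 6 it was 0 in Cy5 and 10 and 8 in Cy3. Of the 61 probes 15 had a saturated spot on at least 1 of the 4 arrays, against 30 of the 217, and its part in the difference was not tested. Large differences were read for probe 1 of model 165416 and probe 2 of LHCA7, both lower on arrays 3 and 4. For model 165416 that probe was saturated in both channels on arrays 3 and 4 and in Cy3 on arrays 5 and 6, and for LHCA7 it was saturated in Cy5 on arrays 3 and 4, so no difference is given. Among the probes with no saturated spot, probe 2 of the unnamed model 127560 differed most, with a mean of 0.14 on arrays 3 and 4 and -0.95 on arrays 5 and 6, a difference of 1.09 ± 0.13 (SE, n = 2 arrays each, adjusted p = 0.091 in limma). Cy5 of this probe was not well above background on arrays 5 and 6, so its ratios there set a Cy5 signal at background against Cy3. Probe 1 of model 127560 lay between -0.05 and 0.06 on all 4 arrays. In the same direction, 21 of the 22 probes of models 205836 to 205849 were higher on arrays 3 and 4, with differences of -0.07 to 0.95, an unadjusted p under 0.05 for 18 of them and a lowest adjusted p of 0.095 in limma. These probes were named after their values were seen.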

How the data were processed

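Total RNA had been labelled and hybridised to 2-colour Agilent arrays, and all 8 arrays at hand were read. The authors deposited scanner output of Feature Extraction 10.7.3.1, whose processed intensity of each channel is corrected for background and dye. The deposited value table holds the log10 ratio of Cy5 over Cy3 of the same arrays and was used as an alternative. Columns that the files mark as well above background, saturated, uneven or outlying were taken as given. The deposited p-values of each spot, from the error model of the scanner software, were not used. Ratios were computed as log2 of processed Cy5 over Cy3 intensity, for the dye test without further normalization and for cc3491 after loess, array by array, with limma 3.58.1 under R 4.3.3. Control and marked spots were left out, saturated spots kept, and spots of a probe averaged. For the rule itself marked spots were kept. The value of a model is the mean of its probes 1 and 2. The test was limma's moderated test over all probes, tested on simulated data. Its Holm adjustment and 2-fold minimum follow the study's methods, which name EMMA2 as software. Arrays 1 and 2, on which 3.56 to 4.41% of the probes were well above background, entered as an alternative. The p-values treat the 4 arrays as separate samples and are too small where arrays are technical replicates. No read depth applies to arrays, and their number and signal limit the precision.

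Genes were named by a rule: the 10 lowest models on the second dye-test array, up to 4 models per gene list, the 3 lowest and 3 highest on the first dye-test array, the 3 with the highest probe 3, and the 3 nearest to the threshold on each side. Names and descriptions come from the study's tables. The 130 models, the gene lists and the tests were chosen with earlier results of these data known. A check of base composition would be void, because probe sequences were at hand for 19 of the 130 models. Figures were drawn with matplotlib 3.10.9.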

Additional observations from a re-analysis of the deposited data

How the results depend on the processing

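The number of models was 69 with normexp background correction and loess, of which 60 were among the 130. It was 234 with a threshold of -2, 61 with a threshold of -3 and 80 with replication means between -0.5 and 0.5. The other 5 settings gave 128 to 131 models. With normexp and loess the median on the second dye-test array was -2.58 and that of probe 3 was -1.46. The cause was not tested. All other settings for the 2 dye-test arrays moved a median by less than the SD between probes 1 and 2. The median over arrays 3 to 6 (0.00) was -0.055 in the deposited value table, -0.065 on arrays 5 and 6 alone and -0.02 to 0.02 with 1 array left out. For sulfur-starved against T0, 1 probe was called with Benjamini-Hochberg adjustment and a 2-fold change (159875, probe 1) and 2 with normexp and loess (159875, probe 2, and 196402, probe 1). With Holm adjustment and processed intensities the number was 0 in all settings, including each array left out (0 to 0). Over all probes that test called 212, against 1639 with Benjamini-Hochberg adjustment, 136 with normexp, 107 with slide as a random block, 58 without a filter on dim probes, 6 with all 6 arrays and 8 to 16 with 1 array left out. For arrays 3 and 4 against 5 and 6, normexp and loess called 1 probe of the 130 models (165416, probe 1, with saturated spots) and 7 of all, and all other settings with Holm or Benjamini-Hochberg adjustment, each array left out included, called 0. Where 1 array was left out, the lone array was assumed to vary like the others. Settings that use arrays 5 and 6 alone, leave out neighbouring identifiers or leave out saturated models were added after seeing the data. No paired analysis was possible because replicate numbers are shared only between the cc3491 and the cc125 arrays, which differ in strain and contrast and were not compared in a test.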
